A study of Homo sapiens with 26 samples.

Results

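FOXA1dbd and HNF4A are 2 of the 5 HALO-tagged proteins whose binding was mapped in this series by chromatin immunoprecipitation followed by sequencing (ChIP-seq), and their deposited peak lists were compared here row by row. Each row of the FOXA1dbd list was set against each row of the HNF4A list, rows with the same coordinates were counted as 1 peak, and peaks were called shared when they had at least 1 bp in common. The comparison took in 28831 FOXA1dbd peaks and 38291 HNF4A peaks, 67122 of the 399567 peaks in the 5 full lists of the series. A peak of either list that met no peak of the other is called private below.

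The cells were BJ human foreskin fibroblasts, an established line. Each tagged protein was expressed ectopically for 48 hours, and an antibody to the HALO tag was used for every construct, so FOXA1dbd cells and HNF4A cells share the cell line, the tag, the time and the antibody and differ by the tagged protein. Per the labels there are 2 immunoprecipitated libraries a construct with their inputs, but 1 peak list each, so there was no replicate list and no test between conditions could be made. The suffix dbd is a usual abbreviation of DNA-binding domain. The labels do not spell it out, nor do they say whether that domain was kept alone or altered, so the construct is called by its label here.

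FOXA1 is a forkhead transcription factor of liver, lung, pancreas, prostate and breast, known as a pioneer factor because it can bind its sites in closed chromatin. HNF4A is a nuclear receptor of hepatocytes, gut and kidney that binds as a homodimer to direct repeats of a hormone-response half-site. In liver the 2 factors act together at many enhancers, and both belong to the sets of factors used to turn fibroblasts into hepatocyte-like cells. AP-1, a dimer of FOS and JUN proteins, and the TEAD and RUNX factors are resident at many active enhancers of fibroblasts.

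Of the 1264 overlapping pairs, the following stretches of the reference genome show what shared sites looked like. The coordinates are hg19/GRCh37, the strand is plus, and capitals mark any forkhead core (TATTTAC or TGTTTAC), AP-1 core (TGACTCA), HNF4 core (CAAAGTCCA) or DR1 core (CAAAGGTCA, a direct repeat with 1 spacer base) on either strand. A site outside protein-coding genes is called by the protein-coding gene with the nearest start, however far away that is. The first stretch is the pair ranked first by the lower of its 2 fold percentiles, 33383 bp from the start of EVA1A, with the HNF4A summit at base 26 and the FOXA1dbd summit at base 237. The stretch holds 1 AP-1 core, near the HNF4A summit, and the 200 bp around the FOXA1dbd summit, which run past its end, hold another. The second stretch lies between genes, 211457 bp from the start of IRS1, and holds an AP-1 core and a forkhead core. Both cores lie past the end of the FOXA1dbd row, whose midpoint stands in for a summit outside it. The forkhead core is within the 200 bp around the HNF4A summit and not within those around the FOXA1dbd midpoint. The last 3 come from the 8 pairs that held a forkhead core together with an HNF4 or DR1 core.
EVA1A region, chr2:75829995-75830256: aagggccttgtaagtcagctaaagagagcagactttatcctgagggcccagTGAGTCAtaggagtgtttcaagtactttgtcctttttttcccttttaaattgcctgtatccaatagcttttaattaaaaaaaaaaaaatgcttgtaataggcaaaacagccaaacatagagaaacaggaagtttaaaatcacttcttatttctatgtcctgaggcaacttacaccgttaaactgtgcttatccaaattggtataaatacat
IRS1 region, chr2:227448480-227448681: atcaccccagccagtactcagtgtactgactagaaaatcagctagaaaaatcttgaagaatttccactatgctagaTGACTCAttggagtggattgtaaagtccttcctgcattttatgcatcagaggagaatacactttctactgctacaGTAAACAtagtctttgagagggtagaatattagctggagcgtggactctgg
ADGRL2 region, chr1:81645057-81645216: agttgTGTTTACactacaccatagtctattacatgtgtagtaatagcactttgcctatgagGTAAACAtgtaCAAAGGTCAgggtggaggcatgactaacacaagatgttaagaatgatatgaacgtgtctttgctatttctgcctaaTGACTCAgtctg
USP24 region, chr1:56293241-56293364: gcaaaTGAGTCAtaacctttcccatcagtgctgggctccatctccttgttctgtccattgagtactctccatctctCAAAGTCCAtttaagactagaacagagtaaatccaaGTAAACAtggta
PARP15 intron, chr3:122338060-122338118: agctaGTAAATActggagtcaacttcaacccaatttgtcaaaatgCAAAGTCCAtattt

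Private sites looked different in the 2 lists, as the peaks of highest fold show. The FOXA1dbd examples are an intron of SRBD1 and an intron of SH3D19, both made of short tandem repeats, and the region of NFATC1, a transcription factor of T cells and bone, where a forkhead core recurs inside a repeat. The HNF4A examples are a coding exon beside the start of NDUFAB1, the mitochondrial acyl carrier protein, and an intron of ZNF776 with an HNF4 core. A private site of each list with an AP-1 core closes the set, in MYO1E for FOXA1dbd and in PEMT for HNF4A.
FOXA1dbd private, SRBD1 intron, chr2:45641816-45641896: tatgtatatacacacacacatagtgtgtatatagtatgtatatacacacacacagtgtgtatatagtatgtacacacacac
FOXA1dbd private, SH3D19 intron, chr4:152037378-152037458: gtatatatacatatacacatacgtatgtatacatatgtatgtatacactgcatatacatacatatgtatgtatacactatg
FOXA1dbd private, NFATC1 region, chr18:77324516-77324596: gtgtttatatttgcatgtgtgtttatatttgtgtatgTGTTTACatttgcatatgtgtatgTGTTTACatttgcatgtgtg
FOXA1dbd private, MYO1E intron, chr15:59524755-59524835: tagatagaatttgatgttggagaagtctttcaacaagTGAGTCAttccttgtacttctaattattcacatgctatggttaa
HNF4A private, NDUFAB1 coding exon, chr16:23607471-23607551: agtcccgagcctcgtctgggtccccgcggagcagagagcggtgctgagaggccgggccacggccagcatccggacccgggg
HNF4A private, ZNF776 intron, chr19:58258816-58258896: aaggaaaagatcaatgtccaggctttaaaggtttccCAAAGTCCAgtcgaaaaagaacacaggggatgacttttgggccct
HNF4A private, PEMT intron, chr17:17484255-17484335: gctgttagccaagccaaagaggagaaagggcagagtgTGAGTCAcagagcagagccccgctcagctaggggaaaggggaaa

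The FOXA1dbd list covered 6.75 Mb, 0.236% of the known bases of the genome, and the HNF4A list 13.1 Mb, 0.460%. The fold enrichment that the authors' peak caller gave each peak had a median of 5.18 in the FOXA1dbd list (quartiles 4.44 and 6.16, highest 22.1) and of 5.92 in the HNF4A list (4.78 and 7.95, highest 42.9). Of the FOXA1dbd peaks, 44.5% had at least 1 end at exactly the coordinate of an end of a FOXA1 row, and 96.2% overlapped FOXA1 peaks. What made the ends coincide was not tested. The FOXA1dbd peak names had 3 prefixes, IP1 (25882 peaks), IP3 (2627) and WT_FOX (322). Their median folds were 5.18, 5.27 and 6.30, and 4.51%, 2.63% and 5.90% of them were met by an HNF4A peak. All 38291 HNF4A peaks had the same prefix. What the prefixes stand for is not known here, so the FOXA1dbd rows may not come from a single peak call. The summit that a row reports lay beyond the row's end in 8.95% of FOXA1dbd rows and 1.83% of HNF4A rows, and the row's midpoint was used for those. Peak lists carry no expression values, so the fibroblast identity could not be checked from them. The lists give no read counts, and the depth behind each peak is unknown.

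The HNF4A list had peaks over coding exons of the HNF4A gene itself. Of the 17 separate coding blocks of this gene (chr20:42984339-43061485), 10 were met by 10 peaks of the HNF4A list, with folds between 2.15 and 3.32, all within the lowest 1.63% of the list by fold. None of the 4 lists of FOXA1 constructs had a peak on those coding blocks. The FOXA1dbd list had no peak in the gene of either tagged protein. A cause for the exon peaks was not tested, and none of them was a shared site.

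Most peaks of each list met no peak of the other, at a depth that is unknown for both. Of the FOXA1dbd peaks, 1255 (4.35%, 95% Wilson interval 4.12 to 4.59) were met by an HNF4A peak, and of the HNF4A peaks, 1232 (3.22%, 3.05 to 3.399) were met by a FOXA1dbd peak. These and all later Wilson intervals cover counting error over peaks and no variation between cultures. Beside these shares, the HNF4A list covers 0.460% of the known bases and the FOXA1dbd list 0.236%. How often lists of such coverage and peak width would meet without any relation was not tested. Private peaks were not near misses as a rule. The centre of the nearest HNF4A peak lay a median of 25741 bp from a private FOXA1dbd peak, and within 1000 bp for 4.02% of them. From a private HNF4A peak the nearest FOXA1dbd centre lay a median of 32978 bp away, and within 1000 bp for 2.97%. When FOXA1dbd rows with an end at a FOXA1 row end were left out, the share of HNF4A peaks met fell to 1.44% and the share of FOXA1dbd peaks met was 3.45%.

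The base composition of a site went with whether it was shared, in opposite directions in the 2 lists. The median G and C content of the central 200 bp was 33.5% at private FOXA1dbd sites, 40% at shared FOXA1dbd sites, 44% at shared HNF4A sites and 53% at private HNF4A sites, against 40% over all 200 bp windows of the reference. Of the FOXA1dbd peaks with under 35% G and C, 196 of 16602 (1.18%) were shared. That share was 7.51% from 35% to 45% and 25.3% (196 of 775) from 45% to 55%. Only 9 FOXA1dbd peaks had 55% or more, and 3 of these were shared. Among HNF4A peaks the order was turned around. Of those with under 35% G and C, 35 of 146 (24.0%) were shared, then 10.2% and 3.12% in the middle bands, and 46 of 16261 (0.283%) at 55% or more. The lists themselves differ in composition, and the shared classes are members of the same overlapping pairs, so their composition must be close. Opposite orders in the 2 lists therefore follow in part from the composition of the lists and are not a separate result.

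**Figure D1:**
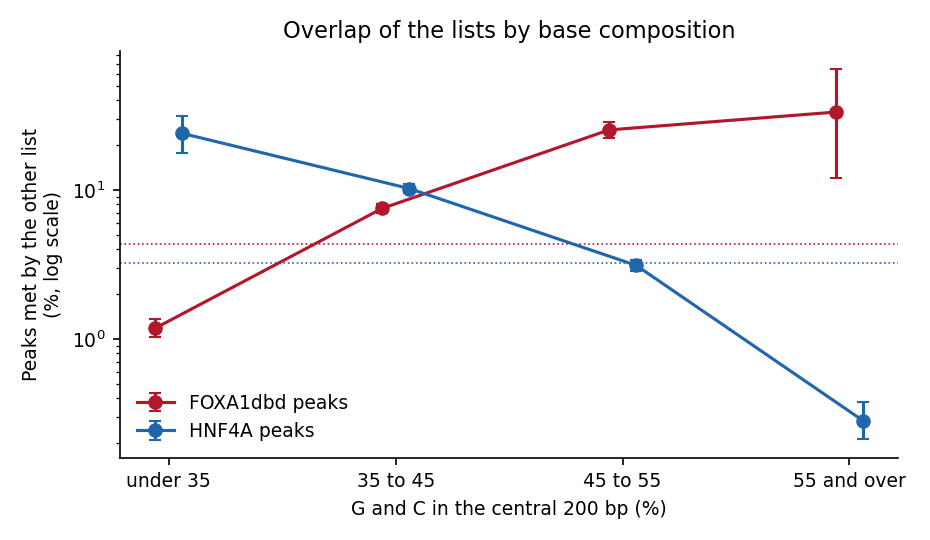
The share of peaks met by the other list (vertical axis, percent, log scale) is plotted by the G and C content of the central 200 bp (horizontal axis, 4 bands) for FOXA1dbd peaks in red and HNF4A peaks in blue. Bars are 95% Wilson intervals and dotted lines the shares over each whole list, 4.35% and 3.22%, and HNF4A peaks have the higher share in the lower 2 bands and FOXA1dbd peaks in the upper 2.

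Promoters set the HNF4A list apart from the sites it had in common with FOXA1dbd. Of the private HNF4A sites, 39.3% (38.8 to 39.8) had their centre within 1000 bp of an annotated transcription start, against 13.5% (11.7 to 15.5) of shared HNF4A sites and 7.50% of all windows of the reference. Of the FOXA1dbd sites, 13.9% (12.1 to 15.97) of the shared and 9.05% (8.72 to 9.40) of the private ones were that near. An HNF4A peak near a start was shared in 166 of 14715 cases (1.13%), and one farther away in 1066 of 23576 (4.52%). A FOXA1dbd peak near a start was shared in 175 of 2672 cases (6.55%), and one farther away in 1080 of 26159 (4.13%). Introns held 58.2% of shared FOXA1dbd sites and 62.4% of private ones, and 58.6% of shared but 38.7% of private HNF4A sites. With a distance of 2500 bp the shares near a start were 25.7% and 20.02% for shared and private FOXA1dbd sites. For shared and private HNF4A sites they were 26.0% and 49.9%. At both distances the shared classes lay within each other's intervals. The shared classes are the members of the same overlapping pairs, whose centres lay a median of 118 bp apart. Their shares near a start must therefore be close, and that closeness is not a separate result.

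Genes with FOXA1dbd at a start often had HNF4A at a start too, but seldom at the same site. A gene can have several annotated starts, and the peaks of the lists need not lie at the same one. A FOXA1dbd peak lay within 1000 bp of a start of 1494 of 20136 protein-coding genes (7.42%), and an HNF4A peak of 9536 (47.4%). Of the 1494 genes, 1059 (70.9%) also had an HNF4A peak at a start, which is 5.26% of all protein-coding genes. An overlapping pair lay at a start in 114 genes (0.566% of all), 10.8% of the genes that had both.

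Of the 11 cores searched, the most frequent at shared sites belonged to neither tagged protein. The cores differ in length and were matched without mismatch, so each share is to be read beside its own share of reference windows. The AP-1 core was found in the central 200 bp of 34.2% (31.6 to 36.9) of shared FOXA1dbd sites and 31.2% (28.6 to 33.8) of shared HNF4A sites. Private sites held it in 17.9% (FOXA1dbd) and 17.7% (HNF4A), and 3.05% of all reference windows of this length did. The difference was also there at 1 base composition. Between 35% and 45% G and C, the AP-1 core was at 34.0% of shared against 24.6% of private FOXA1dbd sites, and at 32.2% of shared against 22.8% of private HNF4A sites, with 3.30% of reference windows of that composition. With the letters in reverse order, a word of the same composition, the shares were 7.01% and 4.61% at shared and private FOXA1dbd sites, 6.17% and 3.96% at shared and private HNF4A sites, and 2.73% of reference windows. In the other direction, 8.02% of FOXA1dbd peaks with an AP-1 core were shared against 3.52% of those without, and 5.52% of HNF4A peaks with it against 2.71% without.

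AP-1 cores were centred on the peaks. Within 50 bp of shared FOXA1dbd centres they were 9.88 times as dense as in the outer flanks of the 500 bp on each side, and around shared HNF4A centres 7.36 times. The same ratio was 6.24 at private FOXA1dbd and 5.56 at private HNF4A centres. Cores of the other enhancer factors of fibroblasts followed in lesser measure. The TEAD core GGAATGT was at 9.64% of shared against 5.72% of private FOXA1dbd sites, at 8.93% against 4.47% of HNF4A sites, and at 2.88% of reference windows. The RUNX core TGTGGTT was at 7.65% against 5.51% of FOXA1dbd sites, at 7.47% against 3.79% of HNF4A sites, and at 3.84% of reference windows.

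The forkhead core was a mark of private FOXA1dbd sites. It was found at 22.5% (22.02 to 23.01) of them and at 13.2% (11.5 to 15.2) of shared FOXA1dbd sites, against 7.29% of reference windows. Shared HNF4A sites held it in 7.95% and private HNF4A sites in 3.10%. Its letters are rich in A and T, so the composition of the sites bears on these shares. Between 35% and 45% G and C the shares were 16.7% (15.99 to 17.4) at private and 12.7% (10.6 to 15.1) at shared FOXA1dbd sites, with 7.31% of reference windows. The reversed letters were at 18.3% of private and 12.2% of shared FOXA1dbd sites and at 12.3% of reference windows. Set against the reference, the core was therefore 3.09 times as frequent at private FOXA1dbd sites and its reverse 1.48 times, while at shared FOXA1dbd sites the ratios were 1.81 and 0.988. Around centres the forkhead core was 3.49 times as dense as in the flanks at private FOXA1dbd, 2.13 times at shared FOXA1dbd, 1.04 times at shared HNF4A and 0.582 times at private HNF4A sites.

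The HNF4 and DR1 cores are longer words than the AP-1 and forkhead cores, and all were matched without mismatch. A longer exact word is found less often, so these shares do not count all sites that HNF4A could bind. The HNF4 core was rare in every class and most frequent where HNF4A was. It was at 19 of 1232 shared HNF4A sites (1.54%, 0.990 to 2.40) and 361 of 37058 private ones (0.974%, 0.879 to 1.08), 11 of 1255 shared FOXA1dbd sites (0.876%, 0.490 to 1.56) and 66 of 27576 private FOXA1dbd sites (0.239%, 0.188 to 0.304), against 0.253% of reference windows. Private FOXA1dbd sites were thus at the level of the genome. Of the 77 FOXA1dbd peaks with an HNF4 core, 11 (14.3%, 8.17 to 23.8) were shared. The related DR1 core was at 0.797% of shared and 0.196% of private FOXA1dbd sites, and at 1.14% and 0.885% of shared and private HNF4A sites, with 0.232% of reference windows.

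Private HNF4A sites held some of the other cores more often than shared HNF4A sites. The GC box GGGCGGG, a site of SP and KLF factors, was at 12.7% of private HNF4A sites, 1.14% of shared HNF4A sites and 1.05% of reference windows. The ETS core CCGGAAG was at 3.25%, 0.568% and 0.467% of them, and the CTCF core at 1.75%, 0.731% and 0.335%. The GC box is made of G and C only, and the ETS core is rich in them. Median G and C was 53% at private and 44% at shared HNF4A sites, so composition bears on these shares, which are not split by it here. None of the 11 cores searched was found at 45.5% of shared and 53.9% of private FOXA1dbd sites and at 48.4% of shared and 56.9% of private HNF4A sites.

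**Figure D2:**
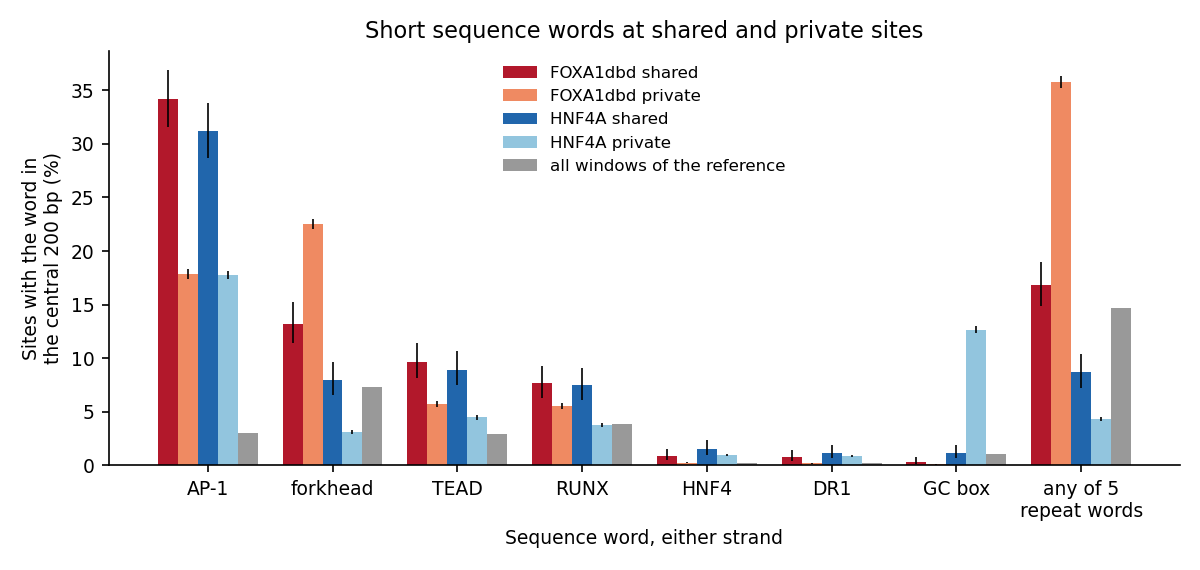
The share of sites with each word in the central 200 bp (vertical axis, percent) is shown for shared and private FOXA1dbd sites (dark and light red), shared and private HNF4A sites (dark and light blue) and all 200 bp windows of the reference (grey). Thin bars are 95% Wilson intervals. AP-1 stands at 34.2% and 31.2% at shared sites, the forkhead core at 22.5% at private FOXA1dbd sites and the GC box at 12.7% at private HNF4A sites.

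**Figure D3:**
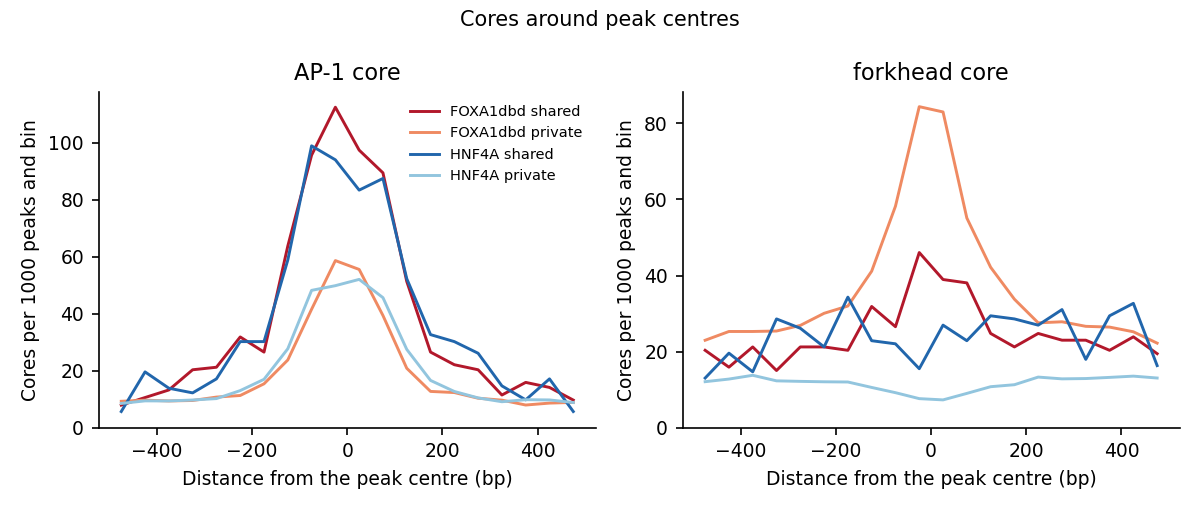
AP-1 cores (left) and forkhead cores (right) are counted in 50 bp bins (vertical axis, cores per 1000 peaks and bin) by distance from the peak centre (horizontal axis, bp, within 500 bp) for the 4 classes, using peaks whose summit lies inside the row. AP-1 cores gather at the centre in every class, and forkhead cores do so at FOXA1dbd sites and thin out at private HNF4A centres.

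Private FOXA1dbd sites were also rich in 5 short words of the kind found in tandem repeats. This feature was noticed in the peaks of highest fold and then counted over all peaks. The 5 words were the CA repeat CACACACA, the TA repeat TATATATA, and 3 mixed words seen in those peaks, namely ATACACA, the word ATATGTA and the word ATACATA, on either strand. At least 1 of them was in the central 200 bp of 35.8% (35.2 to 36.3) of private and 16.8% (14.8 to 19.0) of shared FOXA1dbd sites. The share was 8.69% at shared and 4.29% at private HNF4A sites and 14.7% over all reference windows, which put shared FOXA1dbd sites close to the genome and private ones well above it. ATACACA alone was at 18.2% of private FOXA1dbd sites and 4.83% of reference windows. The CA repeat was at 8.09% of private FOXA1dbd sites and 2.90% of reference windows, and the TA repeat at 6.45% and 1.86%. The 3 mixed words need not mark a tandem repeat. They and the TA repeat are rich in A and T, so the composition of the sites bears on these shares, which were not split by composition. Of 5 bins of FOXA1dbd peaks by fold, the highest held such a word in 39.2% and the lowest in 31.8%. The words were chosen from peaks of the highest fold, so the share in the highest bin was in part set by that choice. In the HNF4A list the highest bin had 3.55% and the lowest 5.11%. Of FOXA1dbd peaks with such a word, 2.09% were shared, and of those without, 5.57%. Among FOXA1dbd peaks without any of the 5 words the AP-1 core was still at 35.8% of shared and 21.3% of private sites, and the forkhead core at 12.5% and 21.2%.

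Within overlapping pairs the 2 summits seldom coincided. The centres lay a median of 118 bp apart (95% interval of the median 110 to 125, quartiles 53.5 and 193, n = 1264 pairs), and within 50 bp in 308 pairs (24.4%). In 976 pairs (77.2%) they were within 200 bp. The peaks of a pair had a median of 146 bp in common, 75.6% of the shorter peak, and in 537 pairs (42.5%) each summit lay inside the other peak. In 276 pairs both summit windows held an AP-1 core, and there the median distance was 64 bp. It was 118.5 bp in the 712 pairs in which neither did. Windows that hold the same core must lie near each other, so part of that difference follows from the way the pairs were chosen. Of all pairs, 552 (43.7%) had an AP-1 core at 1 summit or both, 200 (15.8%) a forkhead core, 39 (3.09%) an HNF4 or DR1 core, and 8 a forkhead core together with an HNF4 or DR1 core.

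**Figure D4:**
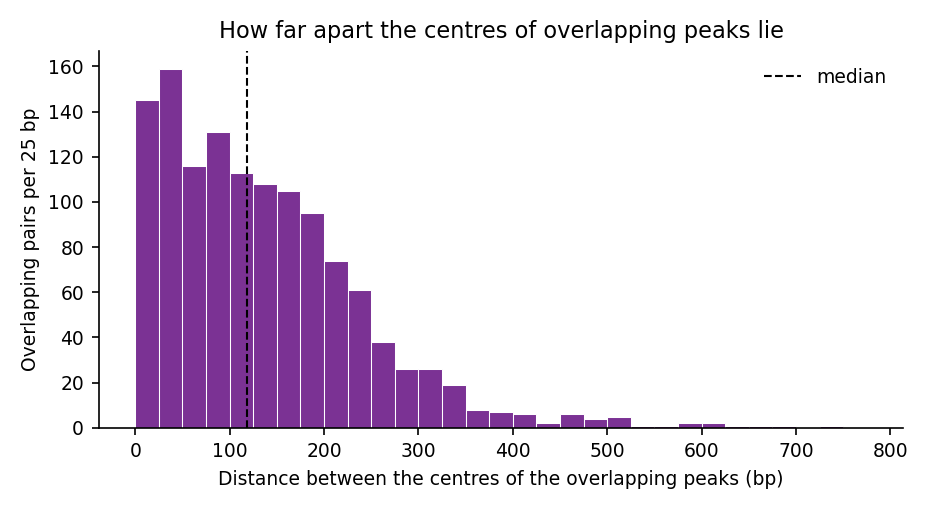
Overlapping pairs of a FOXA1dbd and an HNF4A peak (vertical axis, pairs per 25 bp) by the distance between their centres (horizontal axis, bp). The dashed line is the median of 118 bp, and 308 of the 1264 pairs lie within 50 bp.

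Fold differed little between shared and private peaks, and in opposite directions. Shared FOXA1dbd peaks had a median fold of 5.41 (95% interval 5.34 to 5.55) and private ones of 5.18 (5.17 to 5.18). Shared HNF4A peaks had a median of 5.73 (5.61 to 5.84) and private ones of 5.94 (5.90 to 5.97). The probability that a shared peak had the higher fold than a private one was 0.545 in the FOXA1dbd list and 0.468 in the HNF4A list. Far from starts the HNF4A medians were 5.73 and 5.80. Over 5 equal bins of FOXA1dbd peaks by rising fold, 3.90%, 3.66%, 3.86%, 4.50% and 5.85% were shared, while 3.801% of the lowest and 2.62% of the highest bin of HNF4A peaks were. Over the 1264 pairs the 2 folds showed next to no relation, with a Spearman rho of 0.0155 and a Pearson r of -0.0120. These are given as a description across sites of 1 cell line.

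**Figure D5:**
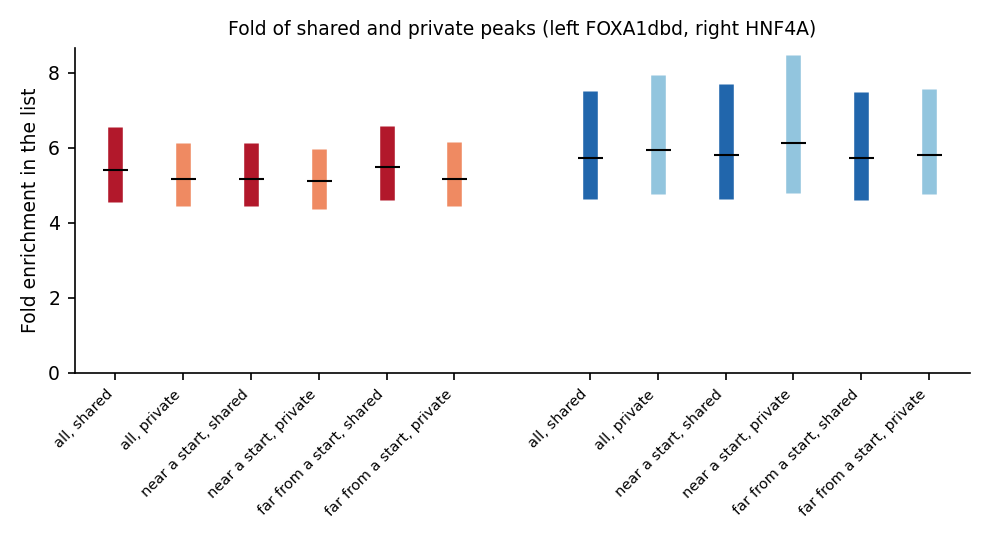
Fold enrichment as the authors' peak caller gave it (vertical axis) for shared and private peaks of the FOXA1dbd list (left, red) and the HNF4A list (right, blue), over all peaks and near or far from a transcription start. Bars run from the lower to the upper quartile and black ticks are medians, which lie at 5.41 and 5.18 for all shared and private FOXA1dbd peaks and at 5.73 and 5.94 for HNF4A peaks.

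The pairs of highest fold in both lists lay in introns or between genes, with 1 at a non-coding exon. Pairs were ranked by the lower of their 2 folds, each taken as a percentile of its own list. Of the top 10 pairs, none was within 1000 bp of a start, as 177 of all 1264 pairs were, and 10 pairs are too few to set apart from that. Of these 10, 9 overlapped a FOXA1 peak, as did 94.6% of all shared FOXA1dbd peaks. An AP-1 core was at a summit in 4, and in 43.7% of all pairs. The first, 5034 bp from the nearest annotated start in the region of EVA1A, a gene of autophagy and cell death, had a FOXA1dbd fold of 8.31 and an HNF4A fold of 17.0 with centres 211 bp apart. The next lay in an intron of FILIP1L, a filamin-interacting protein, with folds of 7.78 and 12.95 at 62 bp. The third and the fourth pair shared the HNF4A peak chr7:1237920-1238402 in the region of the homeobox gene UNCX, met by a pair of overlapping FOXA1dbd rows with the same fold of 8.50, so they are 1 place. The fifth was in an intron of RTTN, which acts in centriole assembly, with folds of 7.57 and 12.4. These 5 were also the top 5 among pairs far from starts.

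Of the other 5 among the top 10, the first lay between genes, 381970 bp from the start of SUGCT, an enzyme of glutarate metabolism (7.48 and 14.3). Another was in an intron of GREB1L, with folds of 8.43 and 11.5 and centres only 10 bp apart. The pair in the region of IRS1, the insulin receptor substrate, had folds of 7.86 and 11.3 with centres 151 bp apart. The last 2 were in an intron of the non-coding RNA gene LINC00595 (7.39 and 14.9), and 9881 bp from the start of GJC1, the gap junction protein connexin 45 (7.34 and 15.7). The latter was the pair outside FOXA1 peaks.

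The 8 pairs with a forkhead core and an HNF4 or DR1 core varied widely in strength, from rank 139 to rank 1241 of the 1264 pairs. The pair in the ADGRL2 region, 126726 bp from that gene's start, whose stretch above holds 2 forkhead cores, a DR1 core and an AP-1 core, had a FOXA1dbd fold of 8.26 and an HNF4A fold of 7.30 with centres 34 bp apart. The pair named for USP24, whose start is 612258 bp away, had folds of 5.65 and 6.90, its centres were 13 bp apart, and both lie within the printed stretch. In the PARP15 intron the HNF4A fold was 16.1, above 97.1% of its list, and the FOXA1dbd fold 5.55, with centres 131 bp apart and the printed stretch between them. The other 5 lay in introns of REV1, MACROD2 and the non-coding RNA gene LINC00882, at an exon of the non-coding RNA gene LINC00445, and between genes with COL12A1 as the nearest protein-coding start, 231010 bp away. Their FOXA1dbd folds were 4.81 to 7.75 and their HNF4A folds 2.99 to 6.53. All 8 overlapped FOXA1 peaks, as did 94.6% of shared FOXA1dbd peaks.

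The private peaks of highest fold came from different kinds of sequence. In the FOXA1dbd list they were in the NFATC1 region (fold 22.1) and in introns of SRBD1 (21.5), SRC (17.8), SH3D19 (17.0) and EDARADD (16.7). They had 25.5% to 34.5% G and C. None was within 1000 bp of a start and all 5 were inside FOXA1 peaks, against 9.05% and 96.3% of all private FOXA1dbd sites. In the HNF4A list those reported here were at a coding exon of NDUFAB1 (42.9), in an intron of MIIP (40.6), in the region of SP100, a nuclear body protein (37.0), and at BCL3, an inhibitor of the NF-kappaB family (36.4). Those 4 had 64.5% to 78.5% G and C and were within 1000 bp of a start. So were 39.3% of private HNF4A sites and 63 of the 100 HNF4A peaks of highest fold. None of the 4 overlapped a FOXA1 peak, and 3.85% of all private HNF4A peaks did. They are not the full 5, since a peak not reported here is left out.

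Shared pairs were spread thinly over genes. The 1264 pairs had 1047 different protein-coding genes as the nearest start, of which 873 had 1 pair, 143 had 2 and 31 had 3 or more. DST, which encodes the cytoskeletal linker dystonin, had 5 pairs, with 32 FOXA1dbd and 23 HNF4A peaks nearest to it, and is 497 kb long. TSHZ3, a zinc finger homeobox gene, also had 5, with 11 and 8 peaks. Of the genes with 4 pairs, the first 3 by name were AKR1E2, an aldo-keto reductase (25 and 6 peaks), ANKRD55 (11 and 10), and PALMD, which encodes palmdelphin (6 and 7). Also at 4 pairs was TGFBR2, a receptor of TGF-beta, named here after its values were seen. Nearest is not always near. Pairs in the gene or within 10000 bp of it numbered 5 for DST, 1 for TSHZ3, 0 for AKR1E2, 2 for ANKRD55, 4 for PALMD and 1 for TGFBR2.

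Genes of the liver, where FOXA1 and HNF4A act together, had HNF4A peaks less often than protein-coding genes at large. Of 38 liver genes, 10 (26.3%) had a FOXA1dbd peak in the gene or within 10000 bp of it, against 39.3% of all protein-coding genes. An HNF4A peak was in or near 18 (47.4%, against 69.5% of all), and none had an overlapping pair (4.27% of all). With 38 genes a count of 0 cannot be told from that share. HNF4A was at a start of 7 liver genes (18.4%, against 47.4% of all), among them APOB and MTTP, which make lipoproteins, SERPINA1 and ABCC2. The HNF4A gene is also counted among the 7, though 10 of the 11 peaks in it were the low-fold peaks over its coding exons. FOXA1dbd was at a start of 1 (2.63%, against 7.42% of all), FABP1, the liver fatty acid-binding protein. With 38 genes, neither FOXA1dbd count, at a start or in or near the gene, can be set apart from all genes. Peaks of both lists, at different sites, were in or near 6 liver genes, namely ABCC2, F2, FOXA1, MTTP, NR1H4 and SLC10A1. The share of all genes with both in or near them was not counted. MTTP and ABCC2 had 4 and 2 FOXA1dbd peaks and 1 HNF4A peak each.

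Genes that mark fibroblasts had peaks of both lists. Of 27 genes of the fibroblast list, 18 had a FOXA1dbd peak in or near them (66.7%, against 39.3% of all protein-coding genes) and 25 an HNF4A peak (92.6%, against 69.5%). Both lists were at a start of 4 (COL5A1, FAP, LUM and VIM; 14.8%, against 5.26%). An overlapping pair was in or near 2 (7.41%, against 4.27%), a count too small to set apart from all genes. At LUM, which encodes the matrix proteoglycan lumican, the FOXA1dbd centre of the pair lay 82 bp from a start, with folds of 5.00 and 9.47. In an intron of COL5A1, a chain of collagen V, the folds were 4.60 and 5.63, and the FOXA1dbd window held an AP-1 core.

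The genes of the AP-1, TEAD and RUNX factors, like protein-coding genes at large, had HNF4A more often than FOXA1dbd. All 14 had an HNF4A peak in or near them (69.5% of all genes did) and 12 had one at a start (47.4% of all), FOS, JUN and JUNB among them. FOXA1dbd was in or near 4 of the 14 (39.3% of all) and an overlapping pair in or near 2 (4.27% of all). RUNX1, a factor of blood and mesenchymal cells, had 30 FOXA1dbd and 36 HNF4A peaks and 3 overlapping pairs, all in introns, 1 of which had an AP-1 core at both summits (folds 5.53 and 9.24). TEAD1, the partner of YAP, had 13 and 14 peaks and 1 pair (4.83 and 5.33).

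Respiratory chain genes had HNF4A at a start more often than protein-coding genes at large, and cytosolic ribosome genes at close to the same share. Of 83 respiratory chain genes, 55 had an HNF4A peak at a start (66.3%, against 47.4% of all protein-coding genes) and 5 a FOXA1dbd peak (6.02%, against 7.42%). An overlapping pair was in or near 3 of them (3.61%, against 4.27%). These were NDUFV2 of complex I, 36 bp from a start with AP-1 cores at both summits (folds 4.81 and 4.85), ATP5PD of the ATP synthase and UQCRC1 of complex III. Of 85 cytosolic ribosome genes, 45 had HNF4A at a start (52.9%, against 47.4% of all). FOXA1dbd was at a start of 5 (5.88%, against 7.42%), namely RPL37, RPL5, RPL6, RPL7 and RPS29. All 5 of those also had HNF4A there, as did 70.9% of all genes with FOXA1dbd at a start, and no pair overlapped at a start (0.566% of all genes had one). RPL26 alone had a pair within 10000 bp (1.18%, against 4.27% of all). The counts of pairs in both sets are too small to set apart from all genes.

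Most of what HNF4A shared with FOXA1dbd it also shared with FOXA1. Of shared HNF4A peaks, 94.2% overlapped a FOXA1 peak, as did 3.85% of private ones, a contrast to be read with the 96.2% of the FOXA1dbd list that itself overlapped FOXA1 peaks. Of the 2587 HNF4A peaks that met a FOXA1 peak, 1160 (44.8%) also met a FOXA1dbd peak. Shared and private FOXA1dbd peaks were alike in this respect, with 94.6% and 96.3% in FOXA1 peaks, 58.3% and 55.1% in FOXA1nhaa peaks, and 60.4% and 61.9% in FOXA1rraa peaks. HNF4A met 1.68% of FOXA1, 1.91% of FOXA1nhaa and 2.05% of FOXA1rraa peaks, against 4.35% of FOXA1dbd peaks. These lists differ in length and in the width of their peaks, and the shares were not tested against each other.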

How the data were processed

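Chromatin was immunoprecipitated through the HALO tag and sequenced. Per the submitters' processing notes, reads were processed with Bowtie2 2.3.4.1, Picard, GATK 4.2.6.0, bedtools 2.27.1, MACS2 2.2.7.1 and deepTools 3.5.0 on hg19; the settings used, and whether libraries were pooled before peak calling, are not given in the sources used here. The deposited FOXA1dbd, HNF4A, FOXA1nhaa and FOXA1rraa lists hold for each peak a score, a fold enrichment (a ratio), a −log10 p-value and a −log10 q-value as the authors' caller gave them, and a summit offset. The deposited FOXA1 list holds a score only. These values belong to single peaks and served to describe and rank peaks of the same list.

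Groups were taken from the sample titles. Rows with the same coordinates were counted as 1 peak (19 repeats in the FOXA1dbd list). Peaks were called overlapping at 1 bp or more, and were placed by their summit, or by the row's midpoint where the summit lay outside. Sequence came from GRCh37 and genes from GENCODE, lifted to that build; peaks fell within its chromosome lengths. The HNF4A list's 1 mitochondrial peak was left out of sequence and gene steps. Core words were counted without mismatch on either strand of the central 200 bp. They were set against all 14292991 windows of 200 bp of chromosomes 1 to 22, X and Y without unknown bases. Scripts used Python 3.11.15, numpy 2.4.6 and pandas 2.3.3 and were tested on simulated data. Intervals are 95% Wilson intervals of shares and order-statistic intervals of medians. No p-value was computed, since peaks are not replicates.

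The members, cores, gene lists and tests were chosen with earlier results of these data known. Named were the 10 pairs with the highest lower fold percentile, the top 5 of them far from a start, the 5 private peaks of highest fold in each list, pairs with a forkhead and an HNF4 or DR1 core, the 5 coding genes with most pairs (ties by name), and gene-list members with a pair within 10000 bp. Of the private HNF4A peaks so named, 1 is not reported here. The repeat words were chosen after seeing the data. Other FOXA1 lists served for context only, and the down-sampled FOXA1 list and the histone samples were not used.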

Additional observations from a re-analysis of the deposited data

How the results depend on the processing

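Of 95 alternative values, 50 lay within the 95% interval of the value reported and 45 outside it. With 1 list per construct no replicate could be left out. No paired analysis was possible because the peak lists, 1 a construct, carry no replicate number. The share of FOXA1dbd peaks met by HNF4A was 3.09% where 50% of the shorter peak had to overlap, 3.49% with centres within 200 bp, 5.57% without FOXA1dbd peaks holding a repeat word and 3.45% without FOXA1dbd rows that end where a FOXA1 row does. For HNF4A peaks met by FOXA1dbd those 4 values were 2.29%, 2.57%, 2.69% and 1.44%, with 2.45% at a −log10 q-value of at least 5 in both lists, 3.003% with IP1-named FOXA1dbd rows and 2.96% with summits inside their rows. Leaving out FOXA1dbd rows can only lower that share. At the same q-value minimum the median folds were 5.98 and 5.70 for shared and private FOXA1dbd and 5.98 and 6.27 for shared and private HNF4A peaks, so the direction within each list was as reported. Within 2500 bp of a start lay 25.7% and 20.02% of shared and private FOXA1dbd and 26.0% and 49.9% of shared and private HNF4A sites; for starts of protein-coding genes the values were 9.08%, 6.06%, 8.93% and 34.4%. In the central 100 bp the forkhead core was at 7.49%, 13.7%, 3.98% and 1.36% of the same 4 classes and the AP-1 core at 18.8%, 10.2%, 15.3% and 9.19%. The HNF4 core was there at 0.398% of shared and 0.141% of private FOXA1dbd and 0.591% of private HNF4A sites; a shorter window holds fewer words. Reversed letters gave, for the forkhead core, 18.3% of private FOXA1dbd and 4.43% of private HNF4A sites, above the 3.10% of the core itself. For the HNF4 core they gave 0.0797%, 0.174%, 0.244% and 0.124% of the 4 classes, and for AP-1 7.01%, 4.61%, 6.17% and 3.96%. With centres within 200 bp the AP-1 core was at 34.6% of shared HNF4A sites. The repeat-word, row-end, summit-inside and AP-1 alternatives were chosen after seeing the data. The depth behind the lists is unknown, so absence from a list does not show absence of binding, and each comparison is of 1 list with 1 list.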

Other observations

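The overlap was uneven over chromosomes. On chromosome 19, which is rich in genes, 21 of 188 FOXA1dbd peaks (11.2%, 7.42 to 16.5) were met by an HNF4A peak, but 21 of 1742 HNF4A peaks (1.21%) by a FOXA1dbd peak. On chromosome 4, 65 of 2162 FOXA1dbd peaks (3.01%) and 64 of 1409 HNF4A peaks (4.54%) were shared. The X chromosome, which holds 5.29% of known bases, had 111 FOXA1dbd peaks (0.385% of the list), 413 HNF4A peaks (1.08%) and 1 overlapping pair.

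The FOXA1 gene itself held 1 HNF4A peak, chr14:38060742-38061868, over a coding exon with a fold of 16.6, and no FOXA1dbd peak. An HNF4A peak with a fold of 10.5 lay in an intron of the HNF4A gene, apart from the low-fold peaks over its coding exons.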
